A study of Drosophila pseudoobscura with 4 samples.

Results

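MicroRNAs are short noncoding RNAs that are cut from hairpin precursors and guide Argonaute proteins to the messenger RNAs that they repress. Lineages of *Drosophila* gain and lose many microRNA genes, and the young ones are often read at low levels. The microRNAs described here are precursors that carry a name given in *D. pseudoobscura* (species-named precursors). They were chosen by name, as the rows of the 4 count tables that start with dps_ or that have a dps-mir number of the run assigned to this species, with 19 such rows set aside, also by name. There were 110 such microRNAs out of 231 in the tables, 40 with a dps-mir name and 70 with a dps_ name. The name is not proof of age, because the annotation of the study listed a *D. melanogaster* ortholog for 3 of them, dps-mir-2509 (dme-mir-962), dps-mir-2563 (dme-mir-960) and dps-mir-2535 (dme-mir-2535b). It listed no ortholog for 100, and 7 were not in that annotation.

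Small RNA libraries were compared between males and females of *D. pseudoobscura*, with 2 libraries of each sex. The flies were adults of 7 days from a single stock, reared at 18 °C under a photoperiod of 12 h. The labels name no genotype, treatment or run, and the study describes the females as unfertilized. By the study, each sequencing run held 1 library of each sex. The replicate number of the label was taken as the run, which the sources do not state. The male libraries had 5697 reads in run 1 and 67076 in run 2, and the female libraries had 7111 and 42754. The ovary marker dps-mir-318 had 2 and 5 reads in the males, against 287 and 3102 in the females, in the direction of the sex labels. Nothing in the labels says that the libraries of a sex came from separate cultures, so that p-values measure the spread between these libraries.

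Most of these precursors had no read. At least 1 read was counted for 31 of the 110, against 15 of the 19 set aside and 85 of the 102 microRNAs with other names. For the 79 without a read, 0 of 122638 reads allows a level of up to 24.5 CPM (counts scaled to library size) over the pooled libraries. They were thus not detectable at this depth. Of the 79, 11 overlap another annotated precursor, and for these the limit assumes that reads on overlapping precursors were counted. Reads without molecular identifiers are not independent molecules, and all such limits and intervals cover counting error only. Of the 31 detected, 10 had a single read, 15 had 2 to 9 reads and 6 had at least 10. Only dps_7 and dps-mir-2517-4 had a read in all 4 libraries.

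The male libraries detected more of them. At least 1 read was counted for 7 of the 110 in the male and 3 in the female library of run 1, and for 26 in the male and 14 in the female library of run 2. The male library of run 2 was also the deepest. The number that each library would be expected to detect at the depth of the smaller library of its run was therefore computed from the counts by rarefaction. At equal depth the expected numbers were 7.0 in the male and 2.60 in the female library of run 1, and 21.7 in the male and 14.0 in the female library of run 2. The microRNAs with other names gave 55.0 in the male and 56.2 in the female library of run 1, and 78.9 and 76.0 in run 2. The 19 species-named rows set aside gave 9.0 in the male and 6.17 in the female library of run 1, and 13.8 and 14.0 in run 2. With 2 libraries a sex these numbers carry no test.

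**Figure D1:**
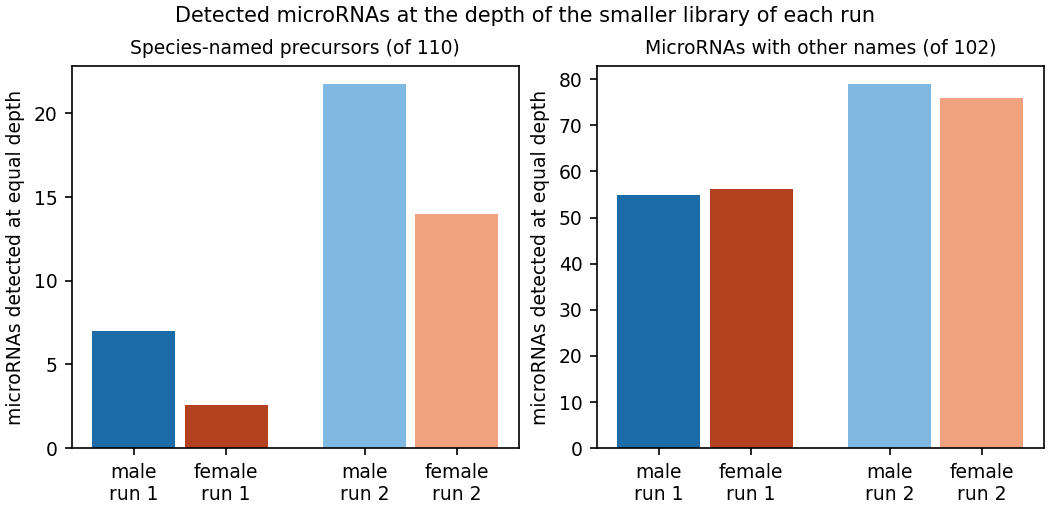
Number of microRNAs detected (vertical axis) at the depth of the smaller library of each run, for the 110 species-named precursors on the left and the 102 microRNAs with other names on the right. Bars are single libraries with no error bar. The male bar is the taller in both runs on the left (7.0 against 2.60 and 21.7 against 14.0), and the bars differ little on the right (55.0 against 56.2 and 78.9 against 76.0).

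A single precursor, dps_7, held most of the reads. Its position in the assembly UCI_Dpse_MV25 is chromosome 3 (Muller element C), 11568325 to 11568430, within the span of Cul4, which encodes a scaffold protein of ubiquitin ligases. Its reads were 54 and 315 in males, against 78 and 156 in females, or 603 of the 798 reads of all 110 (75.6%). Scaled with TMM factors, its levels were 10749 and 4554 CPM in males, against 12808 and 2841 CPM in females. The level was higher in run 1 in both sexes and the sexes overlapped. In edgeR's quasi-likelihood test with run and sex in the model, its log2 fold change of male against female was 0.23 (standard error 0.49, adjusted p = 0.903). This value is within its error, and its sign turned with DESeq2's size factors (-0.11) and with no replicate block (-0.028).

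The summed share of the 110 precursors followed dps_7. They took 1.14% (95% Wilson interval 0.896 to 1.45) and 0.711% (0.650 to 0.778) of the counted reads in the male libraries, against 1.13% (0.905 to 1.40) and 0.412% (0.355 to 0.477) in the female libraries. The male mean was 0.926% ± 0.304 and the female mean 0.768% ± 0.504 (SD, n = 2 each), with a ratio of 1.21. This difference was smaller than the SD of either sex, but that SD includes the difference between the runs. The intervals of the sexes overlapped in run 1 and did not in run 2. Within run 1 the ratio was 1.01 and within run 2 it was 1.73, and it was 0.926 without the male library of run 1 and 0.823 without the female library of run 2. Without the female library of run 1 it was 2.25.

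Without dps_7, the males held the larger share in both runs. The remaining 109 precursors took 0.193% (0.108 to 0.345) and 0.242% (0.207 to 0.282) of the reads in the male libraries, against 0.0281% (0.00771 to 0.102) and 0.0468% (0.0303 to 0.0722) in the female libraries. The intervals of the sexes did not overlap in either run. The male mean was 0.217% ± 0.034 and the female mean 0.0375% ± 0.0132 (SD, n = 2 each), with a ratio of 5.80, which was 6.87 within run 1 and 5.16 within run 2. Of the 195 reads behind these shares, 173 were in males and 22 in females, so that 88.7% of them were in males, where 59.3% of all counted reads were. Of the reads of the 19 species-named rows set aside, 78.9% were in males, with shares of 1.21% and 0.951% in the male libraries, against 0.380% and 0.379% in the female libraries. With dps-mir-2517-4 also left out, a setting added after seeing the data, 116 reads remained in males and 20 in females, and the ratio was 4.33. In run 1 this left 5 reads in the male and 1 in the female library, and no interval was computed for this setting. No test was made of these sums.

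**Figure D2:**
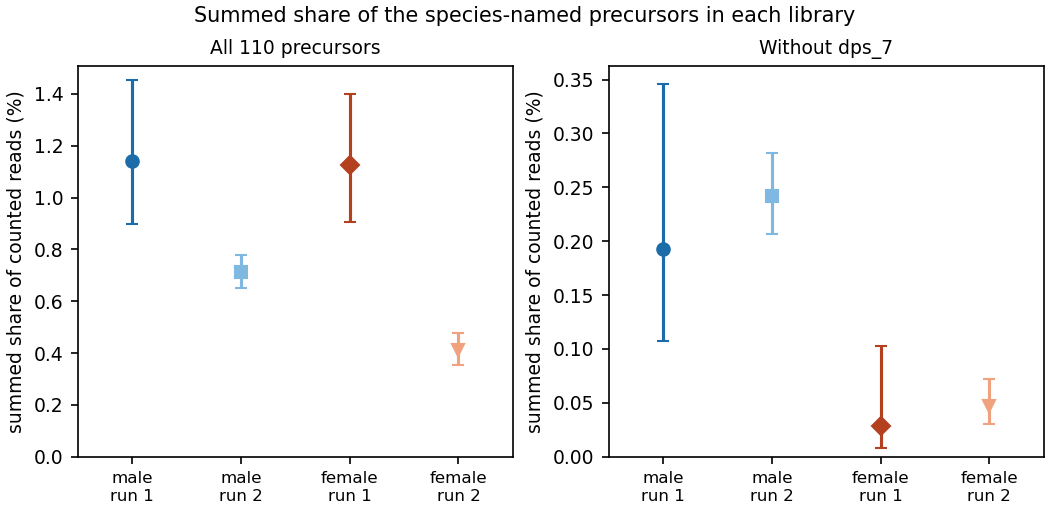
Summed share of the counted reads (percent, vertical axis) in each library, for all 110 species-named precursors on the left and for the 109 other than dps_7 on the right. Points are libraries and bars are 95% Wilson intervals. On the left the points follow the run (1.14% and 0.711% in males, 1.13% and 0.412% in females), and on the right both male points (0.193% and 0.242%) are above both female points (0.0281% and 0.0468%).

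Differential expression was tested across the 84 microRNAs whose base mean in DESeq2 was 1 or more. A microRNA was called where the adjusted p was under 0.1 and the difference at least 25%. Only 6 of the 110 entered the test, among them dps-mir-2510, dps_18 and dps-mir-2509, which have no female read and passed the filter through their male reads. The quasi-likelihood test of edgeR (Benjamini-Hochberg adjustment) called 2 of the 6, dps-mir-2517-4 and dps-mir-2510, both overexpressed in males, and 0 as overexpressed in females. Of all 84, it called 13.1% in either direction, 5.95% as overexpressed in males and 7.14% as overexpressed in females. As overexpressed in males, DESeq2 called 4 of the 6 (10.7% of the 84), limma-voom 0 (2.38%) and edgeR with total counts only 3 (10.7%), while the newer quasi-likelihood fit of edgeR, added after seeing the data, called 1 (22.6%). With limma-voom 5 of the 6, and 23 of the 84, had an unadjusted p under 0.05. With a read in each sex also required, as the study did where it compared fold changes, 78 microRNAs and 3 of the 6 remained in edgeR, and 1 of the 3, dps-mir-2517-4, was called (6.41% of the 78 as overexpressed in males). This setting was added after seeing the data, and dps-mir-2510 does not enter it. For 4 of the 6 both male levels in CPM were above both female levels, as they were for 27.4% of the 84, and for 0 of the 6 both female levels were above both male levels (11.9% of the 84). These counts describe the 6 that passed the filter, 3 of them with male reads alone. In bulk samples, more cells of a type and more RNA per cell cannot be told apart.

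The best-read after dps_7 was dps-mir-2517-4, for which the annotation lists no position. Its reads were 6 and 51 in males, against 1 and 1 in females, or 1194 and 737 CPM in males, against 164 and 18.2 CPM in females. Both males were above both females. Because the female libraries were under the floor of 3 reads, the difference was computed as a lower bound, at least 3.53-fold over both runs, at least 2.42-fold in run 1 and at least 13.5-fold in run 2 (adjusted p = 0.0144 from edgeR). It was also called by DESeq2 (adjusted p = 0.00770) and not by limma-voom (adjusted p = 0.105). The call was lost without the male library of run 1 (adjusted p = 0.205) and without the female library of run 2 (adjusted p = 0.750), in fits of 3 libraries with sex only.

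The other called precursor was dps-mir-2510, on chromosome 4 (Muller element B) from 5946829 to 5946935, outside the gene spans of RefSeq. Its reads were 1 and 29 in males, against 0 and 0 in females, or 199 and 419 CPM in males. In run 1 a single read separated the sexes. The level in males was at least 1.13-fold higher over both runs and at least 7.67-fold higher in run 2 (adjusted p = 0.0537 from edgeR). DESeq2 also called it (adjusted p = 0.0215), and limma-voom did not (adjusted p = 0.165). It entered the test through its male reads alone, so that these p-values rest on the reads that passed the filter. The call was lost without the male library of run 1 (adjusted p = 0.106), that of run 2 (adjusted p = 0.630) or the female library of run 2 (adjusted p = 0.644).

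**Figure D3:**
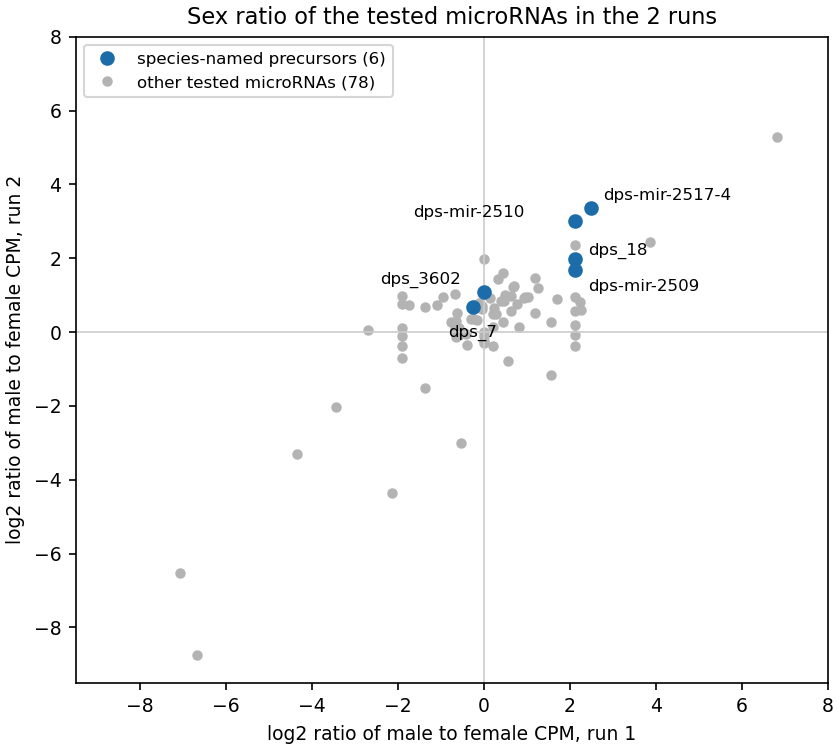
Log2 ratio of male to female CPM in run 1 (horizontal axis) and in run 2 (vertical axis), with a prior count of 2, for the 84 tested microRNAs. Blue points are the 6 species-named precursors and gray points the 78 others. The points of dps-mir-2517-4 (2.49 and 3.36), dps-mir-2510 (2.13 and 3.02), dps_18 (2.13 and 1.98) and dps-mir-2509 (2.13 and 1.68) are above 0 in both runs, where 2.13 stands for 1 male and 0 female reads, and dps_7 lies on either side of 0 (-0.25 and 0.67).

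The neighbors of dps-mir-2510 were read in males only. The cluster, in which precursors lie within 10 kb of each other, holds 7 precursors, all among the 110, between 5944442 and 5946935 on chromosome 4. The precursor dps_18 (5946154 to 5946263) was counted at 1 and 12 reads in males, against 0 and 0 in females. In edgeR its adjusted p was 0.167, so that it was not called. DESeq2 called it (adjusted p = 0.0671), as did edgeR with total counts only (adjusted p = 0.0529). Like dps-mir-2510, it entered the test through its male reads alone. In run 2 its male level was at least 3.18-fold higher, but over both runs the bound was 0.681, under 1, which sets no difference. The third, dps_83 (5944442 to 5944551), had 0 and 3 reads in males, against 0 and 0 in females. The other 4 (dps_14, dps_41, dps-mir-2511-1 and dps-mir-2566a-1) had no read. Neighboring precursors can come from the same transcript and are not independent loci.

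The 3 precursors with a listed ortholog are not species-specific by that annotation. Only dps-mir-2509 was read, with 1 and 9 reads in males, against 0 and 0 in females. The span of DIP-theta holds it (chromosome 4, 6336958 to 6337057), a gene of a cell surface protein of the immunoglobulin family, and its cluster is that of mir-959 to mir-964, whose *D. melanogaster* counterpart cycles with the time of day in the head. The cluster is also on the list of testis markers, of which 2 of 9 were in the tables under those names, dps-mir-959 with 0 and 8 reads in males, against 0 and 0 in females, and dps-mir-964 with 1 and 2 in males, against 0 and 0 in females. Their sum was 1 and 10 reads in males, against 0 and 0 in females, and that of the 3 ovary markers 2 and 6 in males, against 336 and 3473 in females. By their listed orthologs, dps-mir-2509 and dps-mir-2563 stand for mir-962 and mir-960 of the testis list. These testis markers are therefore of the same cluster as dps-mir-2509 and not independent of it. The testis markers thus had reads in males only, and the ovary markers nearly all in females. The muscle marker in the tables, dps-mir-133, had 6 and 181 reads in males, against 3 and 50 in females. The 2 nervous system markers in the tables summed to 3 and 26 in males, against 1 and 18 in females. The part of any of these tissues in the male-only reads was not tested. The level of dps-mir-2509 in run 2 was at least 2.38-fold higher in the male library, but over both runs the bound was 0.602, under 1, which sets no difference. This precursor entered the test through its male reads alone. It was not called by edgeR (adjusted p = 0.216), although DESeq2 called it (adjusted p = 0.0964). Its neighbor dps-mir-2563, also with an ortholog in this cluster, had 0 reads, as had dps-mir-2535 on XL.

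The last of the 6 was dps_3602, on the XR arm of the X chromosome (Muller element D, the neo-X, which was an autosome before it fused with the X) from 66055192 to 66055445. Its annotated length of 254 nt is the longest of the 103 with a position. Its reads were 0 and 18 in males, against 0 and 5 in females. The sexes overlapped at 0 in run 1. The fitted log2 fold change in edgeR was 1.47, with a standard error of 0.73 and an adjusted p of 0.316, and it was not called by DESeq2 or limma-voom.

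**Figure D4:**
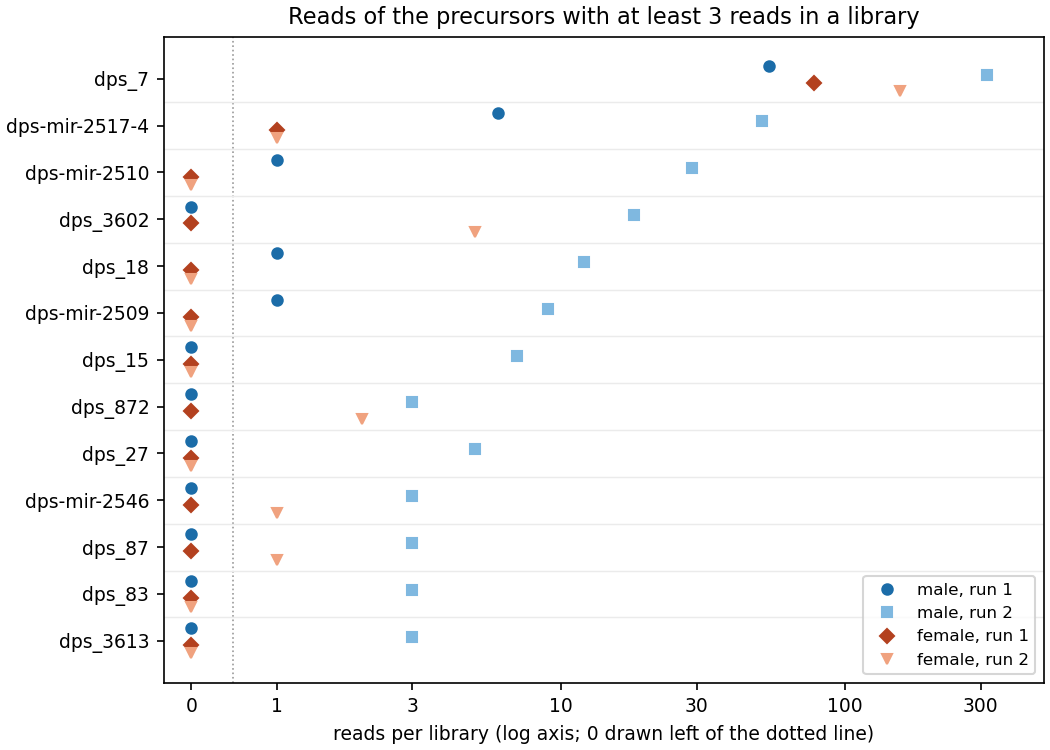
Reads per library (horizontal log axis, with 0 drawn left of the dotted line) of the 13 species-named precursors with at least 3 reads in a library. Each precursor has 4 points, from the top the male libraries of runs 1 and 2 and the female libraries of runs 1 and 2. The light blue squares of the male library of run 2 are the rightmost in all 13, and only dps_7 has a female library with more than 5 reads. Reads are not scaled to depth. That library was the deepest (67076 of the 122638 reads), which favors it both on this axis and in the choice by 3 reads. Scaled to CPM, dps_7 was highest in the female library of run 1 (12808 CPM, against 4554 CPM in the male library of run 2).

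The remaining 25 detected precursors were outside the test and had at most 7 reads each. Together they had 2 and 43 reads in the male libraries, against 1 and 14 in the female libraries, so that 75.0% of their reads were in males. For the 28 microRNAs outside the 110 that had 1 to 9 reads, 58.3% were in males. The male library of run 2 had a read for 20 of the 25, and for 11 it was the only library with one. That library was the deepest, and 9 of the 11 had at most 3 reads in it.

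Of the 25, 7 had at least 3 reads in a library, which was in each case the male library of run 2. The highest was dps_15, with 0 and 7 reads in males, against 0 and 0 in females, which the span of MESK2 holds (chromosome 3, 19426067 to 19426174). Next was dps_27, on chromosome 4 from 25535844 to 25535975, with 0 and 5 reads in males, against 0 and 0 in females. With the floor of 3 reads in the female library of run 2, the male levels of dps_15 and dps_27 in that run were at least 1.85-fold and at least 1.32-fold higher. Over both runs the bounds were 0.185 and 0.132, under 1, so that they set no difference between the sexes. Besides dps_83, dps_3613 also had 0 and 3 reads in males, against 0 and 0 in females. Its position (chromosome 3, 9104680 to 9104811) is in the span of Dcr-2, which encodes the Dicer enzyme of the short interfering RNA pathway. The other 3 had female reads too. In males dps_872 had 0 and 3 reads, against 0 and 2 in females, and dps_87 and dps-mir-2546 had 0 and 3 in males, against 0 and 1 in females. The span of unc79, which encodes a subunit of a sodium leak channel complex, holds dps_872 on chromosome 2.

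The other 18 had at most 2 reads in a library, and no difference between the sexes was detectable for them at this depth. They were looked at after their values were seen. The 4 with reads in females only, dps_239, dps_2466, dps_30 and dps_3750, had 1 read each, all in the female library of run 2. Of these, dps_30 lies within the span of FASN1, which encodes a fatty acid synthase, and overlaps the annotated dps_31, and dps_3750 lies within the span of Tango10. Among the rest, dps-mir-2560 and dps-mir-2562 had 2 reads in the male library of run 2 and none elsewhere. The reads of dps-mir-2571 were 1 in males and 2 in females and those of dps-mir-2572 were 2 and 2, in run 2. The precursor dps_123, within the span of l(3)neo38, had 1 read in each male library, and dps_1595 had 1 read in the male library of run 2 and 1 in the female library of run 1. In run 2, dps_22 and dps_79 had 1 read in each sex. A single male read was found for dps_42, as for each of the 5 in the cluster on XL described next.

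Over all 31 detected precursors, 16 had reads in males only, 4 in females only and 11 in both. Of the 131 microRNAs of the tables with a read, these 31 included, 19.1% were read in males only and 5.34% in females only. Of the 15 precursors with at least 3 reads over the libraries, 7 had reads in males only and 0 in females only. At that minimum, 13 and 2 of the 110 microRNAs of the tables did. Of the 25 precursors with 1 to 9 reads, 52.0% were read in males only and 16.0% in females only. Of the 28 microRNAs outside the species-named precursors with 1 to 9 reads, 28.6% and 10.7% were.

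The largest group at one place was that of the cluster on XL, the older arm of the X chromosome (Muller element A), where 20 of the 110 lie between 9692731 and 9711064 among 25 of the microRNAs in the tables. Of these 20, 5 had a read (dps-mir-2521, dps-mir-2522b, dps-mir-2544, dps_55 and dps_61), with 1 read each, all in males. That of dps_55 was in run 1 and the others were in run 2. The 20 thus had 5 of the 64 reads of the cluster. Some of the 20 overlap or share a position, so that they are not all separate loci. The 12 elsewhere on XL included the female reads of dps_2466 and dps_3750. With all 32 on XL, 9 were detected, 5 in males only, 2 in females only and 2 in both sexes.

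On the neo-X arm XR, 3 of 13 were detected, 1 in males only (dps_42) and 2 in both sexes. On chromosome 4, 10 of 31 were detected, 7 in males only, 2 in females only and 1 in both, and 3 of the 7 belong to the cluster of dps-mir-2510. On chromosome 3, 3 of 13 were detected (dps_7 in both sexes and 2 in males only), and on chromosome 2, 5 of 14 (1 in males only and 4 in both). The reads in males and females were 66 and 3 on chromosome 4, 9 and 4 on XL and 20 and 6 on XR. On chromosome 3 they were 379 and 234, most of them of dps_7, and on chromosome 2 they were 11 and 7. The 7 precursors without a listed position, dps-mir-2517-4 among them, had 57 and 2 and are in none of these counts. The numbers are too small for an order between the chromosomes.

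**Figure D5:**
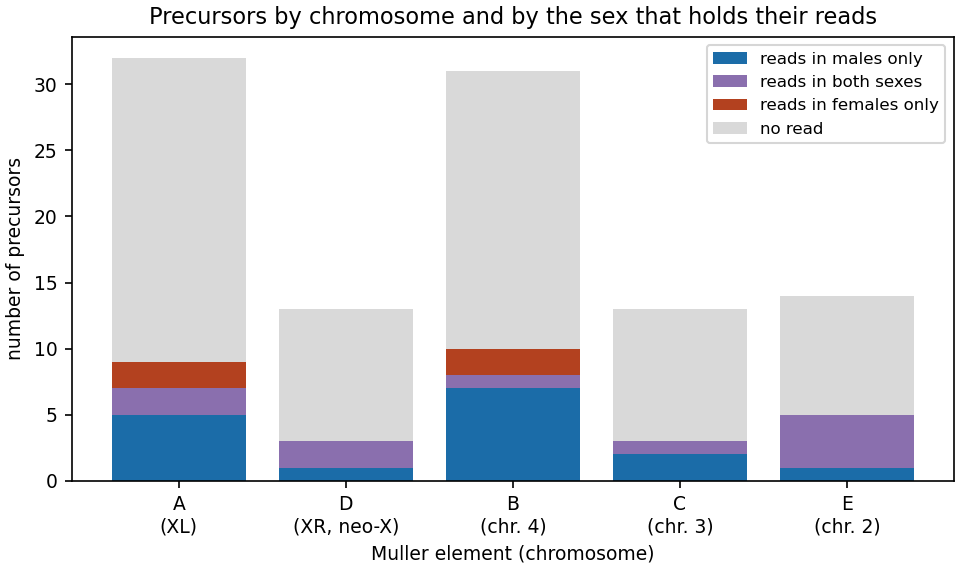
Number of species-named precursors (vertical axis) on each Muller element, with the *D. pseudoobscura* chromosome in brackets, split by the sex that holds their reads. The 103 with a listed position are shown, some of them listed at the same place. The undetected part (gray) is the largest in each bar, and reads in males only (blue) were found for 5 of 32 on XL, 1 of 13 on XR, 7 of 31 on chromosome 4, 2 of 13 on chromosome 3 and 1 of 14 on chromosome 2.

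The numbers that occurred in more than 1 row had no read. Of the 40 with a dps-mir name, 14 carry a suffix for a copy or a variant, and 2 of these had a read, dps-mir-2517-4 (59 reads) and dps-mir-2522b (1 read). The 110 precursors had 106 different numbers or names, because 3 numbers occurred in more than 1 row, dps-mir-2542 (copies 1 and 2), dps-mir-2543 (a-1, a-2 and b-2) and dps-mir-2558 (copies 1 and 2). These 7 rows had 0 reads in all 4 libraries, but so had 79 of the 110, these 7 included. The annotation lists dps-mir-2543a-1 and dps-mir-2543a-2 at the same place, X from 9699091 to 9699206, the copies of dps-mir-2558 on chromosome 4, and no place for dps-mir-2542-1 and dps-mir-2542-2. Only copy 4 of dps-mir-2517 was in the tables, so that its reads could not be compared with those of other copies. The authors left out microRNAs identical to several regions of the genome, and counts of near-identical copies are uncertain.

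Precursors that overlap another annotated precursor were hardly read. Of the 12 that overlap, 1 had a read (dps_30), against 29 of the 91 that have a position and overlap none. Besides the copies of dps-mir-2543a, dps_62 and dps_3831 on XL are listed at the same position, as are dps_2346 and dps_455 on chromosome 2. On XL, dps-mir-2524, dps_3414 and dps_3416 overlap each other. How the counting treated a read on overlapping precursors is not given in the sources used here, and its part in these zeros was not tested. Protein-coding spans held 77 of the 103 with a position, and 20 of these were detected, against 10 of the 26 outside protein-coding spans. The RefSeq table has no exons or strands, so that reads cannot be assigned to a strand of the host gene. Outside these spans 73 of the reads were in males and 6 in females, and inside them 412 and 248, of which dps_7 had 369 and 234. Annotated lengths had a median of 110 nt for the 30 detected and 112 nt for the 73 not detected.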

How the data were processed

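Adult males and females were sequenced as small RNA libraries on an Illumina MiSeq. The authors trimmed adapters with Cutadapt, mapped reads with HISAT2, counted them on annotated precursors with featureCounts, left out microRNAs identical to several genome regions, and deposited raw read counts per library for 231 microRNAs. Depth ran from 5697 to 67076 reads, and the floor of 3 reads was 597, 43.4, 493 and 54.6 CPM in male 1, male 2, female 1 and female 2. This floor limits every low level.

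The model of run and sex, as in the study, was fitted to the counts in R 4.3.3 by edgeR 4.0.16 (glmQLFit and glmQLFTest after TMM). P-values were adjusted over the 84 microRNAs whose base mean was 1 or more. Standard errors are the absolute log2 fold change over the square root of F. A lower bound is the mean CPM of one sex over the mean floor of the other, per library. Alternatives used DESeq2 1.42.0 (local fit), limma 3.58.1 (voom), other normalizations and filters, and fits without each library. The study states that each run held a male and a female library, and that the replicate number gives the run is an assumption. Across the 84, deviations from the sex means under the same replicate number had a Pearson r of 0.567. Intervals were computed with SciPy 1.17.1.

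Named are the tested precursors, those with at least 3 reads in a library, those whose number has several rows, and those with an ortholog and a read. These and the groups were chosen with earlier results of these data known. Positions, Muller elements and orthologs are those of the study's annotation (224 of the 231 are listed, 103 of the 110), and gene spans are from RefSeq, assembly UCI_Dpse_MV25. The authors' own fold changes and base means were not used.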

Additional observations from a re-analysis of the deposited data

How the results depend on the processing

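Of the 84 microRNAs, edgeR's quasi-likelihood test called 11, with 2 among the 110 species-named precursors. DESeq2 called 17 and 4 (the added ones are dps_18 and dps-mir-2509), and limma-voom 6 and 0, with 5 of the 6 tested precursors and 23 of the 84 at an unadjusted p under 0.05. The expression filter of edgeR left 55 microRNAs and 2 of the 6, and called 10 and 1, dps-mir-2517-4. A read required in each sex, added after seeing the data, left 78 and 3 of the 6, and gave 11 and 1, the same precursor. The newer quasi-likelihood fit of edgeR, added after seeing the data, called 26 and 1, without dps-mir-2510 (adjusted p = 0.159). With no replicate block 9 and 2 were called. TMM factors from all microRNAs, also added, gave 12 and 2. Leaving out a library, with the run also left out of the model and a lone library assumed to vary like the others, gave 2 to 6 calls, and 0 to 2 among the precursors. The median log2 fold change of the 84 was 0.46 with TMM, 0.28 with total counts and 0.09 with DESeq2's size factors, and a change in scaling moves each fold change with it. That of dps_7 was -0.028 with no replicate block, -0.11 with DESeq2 and with its size factors in edgeR, -0.18 with edgeR's filter, -0.25 within run 1 and from -0.88 to 0.76 without a library. That of dps_3602 ran from -3.84 to 5.47 without a library. Of the fold changes of the 6 in the alternative fits, 59 kept their direction and their side of the threshold, 8 lost the call, 3 gained it and 7 changed sign. Only dps-mir-2510 and dps-mir-2517-4 were called in the main fit, so that every lost call was of 1 of these 2. The 59 include precursors called in neither fit. A fit that a precursor did not enter is not in the tally, as with dps-mir-2510 under the expression filter of edgeR and with a read required in each sex. Of the ratios within a run, which have no test, 10 kept their sign and 1 did not.

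At a minimum of 3 reads, 2 and 13 precursors were detected in the male and 1 and 2 in the female libraries. At the depth of the smallest library, 8.24 were expected in the male and 3.46 in the female library of run 2. With dps_7 left out, the summed share was 0.193% and 0.242% in males and 0.0281% and 0.0468% in females, and the ratio was 5.80. Without dps-mir-2517-4 as well, added after seeing the data, it was 4.33. As a share of the reads other than dps-mir-8, it was 1.64% and 1.03% in males and 1.62% and 0.552% in females. Without each library in turn the ratio ran from 0.823 to 2.25. Over the precursors with at least 3 reads in all, 7 of 15 were read in males only and 0 in females only, against 13 and 2 of the 110 microRNAs of the tables at that minimum.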
